A study of Mus musculus with 16 samples.

Results

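Gata1, Klf1, Epor, Hemgn, Car1, Car2, Alas2, Slc4a1 and Hba-a1 are 9 genes of the red cell lineage, chosen by symbol to run from the regulators of the committed progenitor to the proteins of the hemoglobin-filled cell. They are 9 of the 20056 symbols in the deposited table, and all 9 had a row. Poly(A)-selected RNA was sequenced from osteoblasts (OBs) and mesenchymal stem cells (MSCs) sorted from 4 miR-9-1-deficient mice, whose Mir9-1 locus was disrupted by CRISPR/Cas9 editing, and from 4 wild-type mice. The 4 groups of 4 libraries are deficient OBs, wild-type OBs, deficient MSCs and wild-type MSCs. The labels give an animal number for every library, the same numbers in both cell types, and no strain, age, sex or sort gate. The labels name no Cre driver or cell type to which the editing was limited. Letters E to H stand here for the deficient mice and A to D for the wild-type mice, each in label order. The study is about the niche cells that support lymphocyte formation in bone marrow, and the red cell genes were read here in its MSC and OB libraries.

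Red cells form in the bone marrow from committed progenitors that first switch on lineage transcription factors and the receptor for erythropoietin, and later fill with hemoglobin. Gata1 encodes the zinc-finger factor that binds GATA motifs and drives most red cell genes. Klf1 encodes the factor that binds CACCC-type motifs and activates adult beta-globin. Epor encodes the receptor whose signal keeps progenitors alive. Hemgn encodes hemogen, a nuclear protein of blood precursors and a target of Gata1. Car1 and Car2 encode carbonic anhydrases, the enzymes that interconvert carbon dioxide and bicarbonate; Car1 is an early marker of red cell progenitors, and Car2 is also made by osteoclasts. Alas2 encodes the red cell form of the first enzyme of heme synthesis, Slc4a1 the band 3 anion exchanger of the red cell membrane, and Hba-a1 an alpha chain of hemoglobin.

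The promoters are shown because the GATA motif links the first gene of the group to the others. RefSeq promoters (GRCm38.p6, 250 bases before to 50 bases after the start site) were matched for 6 of the 9 genes; Car1, Car2 and Slc4a1 had no entry. AGATAA or TGATAA, searched on both strands, was in 5 of these 6 promoters and in 18.61% of all 32851 promoters of the same length. Gata1 was the one without these letters in its window. Stretches around the match nearest upstream of the start are given below 5′ to 3′ on the gene's strand, with the match in capitals (TTATCA and TTATCT are TGATAA and AGATAA on the other strand).
Klf1, chr8:84901872-84901937, plus strand: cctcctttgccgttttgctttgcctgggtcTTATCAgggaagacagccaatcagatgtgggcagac
Epor, chr9:21963595-21963660, minus strand: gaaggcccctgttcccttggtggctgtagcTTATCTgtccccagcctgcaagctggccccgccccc
Hemgn, chr4:46404184-46404226, minus strand: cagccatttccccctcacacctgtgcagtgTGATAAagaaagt
Alas2, chrX:150547301-150547366, plus strand: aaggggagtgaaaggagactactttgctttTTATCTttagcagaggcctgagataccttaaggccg
Hba-a1, chr11:32283459-32283524, plus strand: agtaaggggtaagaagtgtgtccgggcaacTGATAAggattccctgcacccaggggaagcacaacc
A CACCC-type motif, CCNCNCCC on either strand with overlapping matches counted, was in 4 of the 6 promoters and in 49.47% of all promoters, so its share says little about these genes. These matches are descriptions of sequence and were not tested for binding.

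In GENCODE vM21 (GRCm38), Gata1 lies at chrX:7959260-7978071 and Alas2 at chrX:150547375-150570638, so both are X-linked. Klf1 lies at chr8:84901928-84905291, Epor at chr9:21958897-21963506 and Hemgn at chr4:46393989-46413506. Car1 at chr3:14766216-14808368 and Car2 at chr3:14886273-14900770 lie close together on opposite strands. Slc4a1 lies at chr11:102348824-102366203 and Hba-a1 at chr11:32283511-32284465. Hba-a1 and its copy Hba-a2 (chr11:32296489-32297298) held the same value in all 16 libraries. The pair Hbb-b1 and Hbb-bs held identical values too, as did Hbb-b2 and Hbb-bt. The longest Hba-a1 and Hba-a2 transcripts share an unbroken stretch of 415 bases, and their promoter windows were the same over 297 of 297 aligned bases. The value of Hba-a1 therefore cannot be told apart from that of Hba-a2.

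The MSC libraries held 10148197 to 14246986 reads and the OB libraries 15543693 to 18962771, and the smallest value of any of the 9 genes rested on 6 reads. Values are the authors' normalized counts. Fold changes are of log2(value + 1), so those of low genes are understated. Of the defining markers of the labelled cell types, 9 of 10 stroma genes and 4 of 10 osteoblast genes were lower in OBs than in MSCs in deficient mice, and 10 of 10 and 6 of 10 in wild-type mice. The share of all genes that were lower was 30.6% in deficient and 35.5% in wild-type mice. The osteoblast list summed to 6008 to 22460.3 normalized counts in deficient OBs, 12645 to 20532 in wild-type OBs, 45828 to 99210.0 in deficient MSCs and 45625 to 66485 in wild-type MSCs. Xist, the transcript of X inactivation, was at 3720 to 8053 normalized counts in OBs, and the Y-linked gene Ddx3y at 649 to 1939 in the same libraries, so the OB libraries of a group may not be independent single mice. In MSCs, Ddx3y was at 1848 to 3355 in mice A, E and F and at 29.8 to 78.1 in the other 5 mice. The deficient MSC libraries G and H held 1328 and 5325 normalized counts of 10 skeletal muscle genes, against 140 to 374 in the other MSC libraries.

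All 9 genes were higher in OBs than in MSCs, in both genotypes. In deficient mice, 9 of 9 passed as higher, where 29.0% of the 14692 genes tested did, and in wild-type mice 9 of 9 passed, where 34.4% of 14696 did. In 8 of the 9, each OB library was above each MSC library; the share of all genes with this pattern was 28.0% in deficient and 32.6% in wild-type mice. The exception was Epor in both genotypes. The median log2 fold change of the 9 genes was 2.22 in deficient mice and 2.01 in wild-type mice, beside medians of -0.02 and 0.01 over all genes tested. In bulk libraries, more red cell precursors and more RNA per precursor cannot be told apart.

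**Figure D1:**
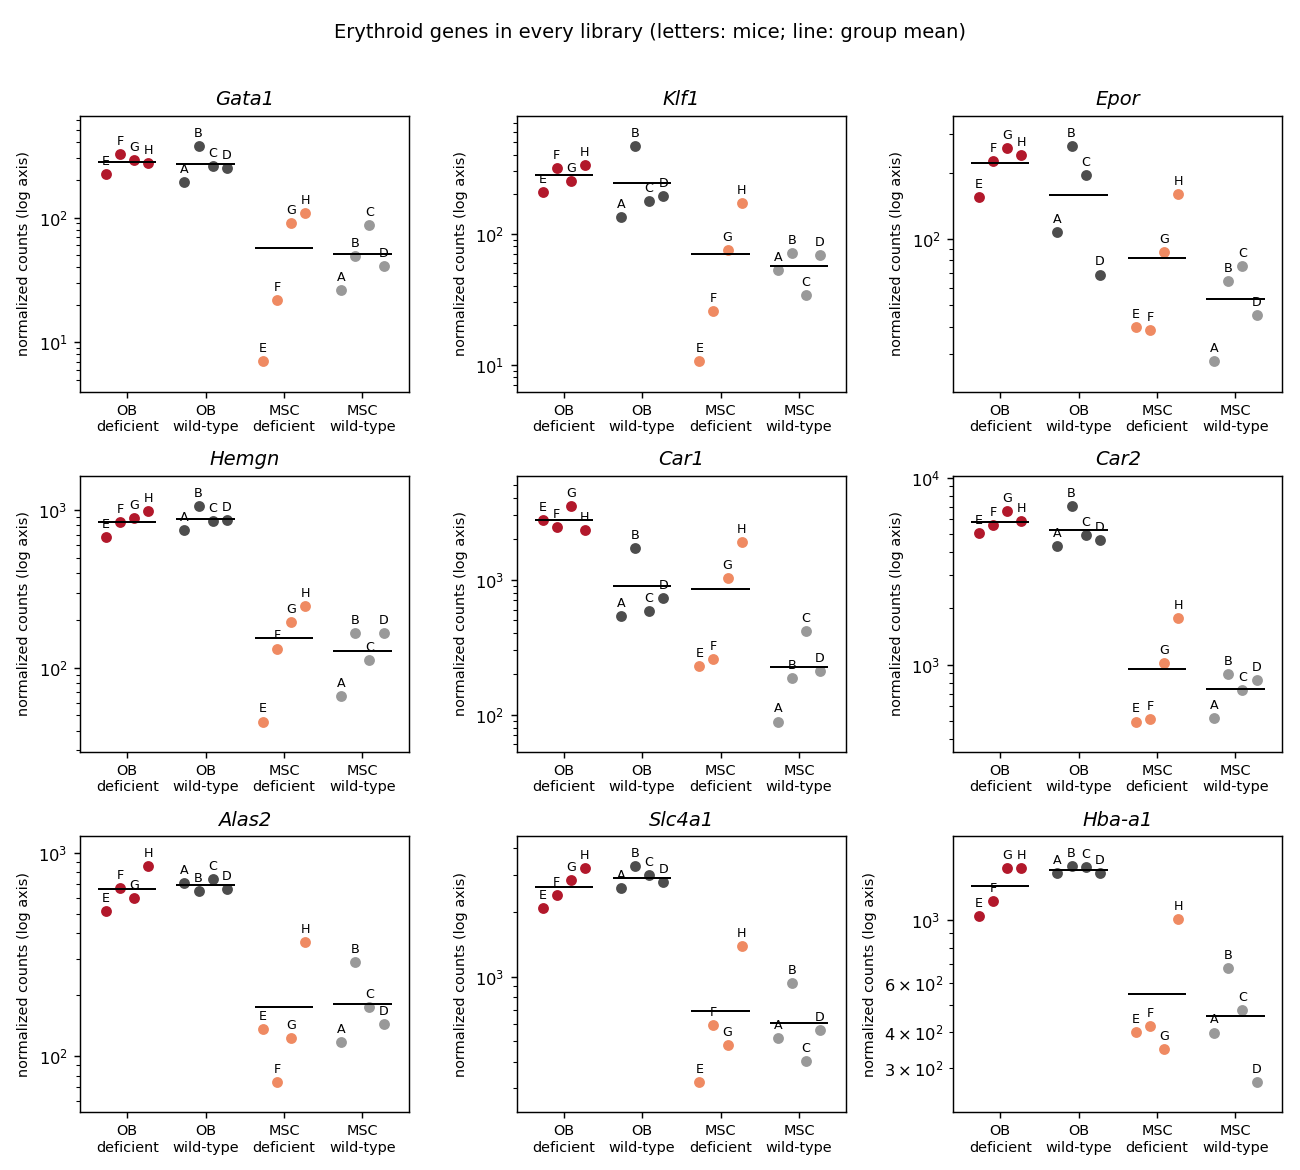
Normalized counts (log axis) of the 9 erythroid genes in each of 16 libraries, in columns for deficient OBs, wild-type OBs, deficient MSCs and wild-type MSCs; letters name mice and lines are group means. Within a genotype the OB libraries lie above the MSC libraries for every gene but Epor, and Car1 is the gene in which deficient OBs (2320.2 to 3487) lie wholly above wild-type OBs (533 to 1713).

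Among the early regulators, Gata1 had 223, 322, 287 and 274 normalized counts in deficient OBs (mice E to H, as in all such lists) and 191, 372, 259.9 and 251 in wild-type OBs (mice A to D). Its values were 7.04, 21.9, 90.2 and 109.6 in deficient MSCs and 26.4, 49.2, 87.8 and 40.6 in wild-type MSCs. The lowest OB library was above the highest MSC library. The 3 lowest MSC libraries for this X-linked gene were E, F and A, the same 3 in which Ddx3y was high; whether the sex of the mice played a part was not tested. Gata1 was higher in OBs by a log2 fold change of 2.90 ± 0.74 (SE) in deficient mice (limma adjusted p = 0.00740) and by 2.46 ± 0.35 in wild-type mice (adjusted p = 8.95e-05).

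Klf1 had 209, 318, 253 and 335 normalized counts in deficient OBs and 134, 466, 177 and 192 in wild-type OBs. In MSCs it had 10.6, 25.8, 74.5 and 171 in deficient mice and 52.7, 71.2, 33.8 and 69.1 in wild-type mice. The cell types did not overlap within a genotype, and the deficient MSC libraries spread over 16.2-fold between E and H. The log2 fold change of OBs over MSCs was 2.62 ± 0.71 in deficient mice (limma adjusted p = 0.0103) and 1.96 ± 0.39 in wild-type mice (adjusted p = 0.000977).

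Epor had 156, 227, 261 and 241 normalized counts in deficient OBs and 108, 265, 197 and 69.0 in wild-type OBs. It had 39.9, 38.7, 87.6 and 161 in deficient MSCs and 27.8, 64.7, 75.6 and 45.1 in wild-type MSCs. The cell types overlapped in both genotypes, through MSC library H in deficient mice and OB library D in wild-type mice. The receptor gene still passed, with a log2 fold change of 1.65 ± 0.44 in deficient mice (limma adjusted p = 0.00975) and 1.48 ± 0.45 in wild-type mice (adjusted p = 0.0127).

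Hemgn, the gene of hemogen, had 674, 843, 886 and 982 normalized counts in deficient OBs and 751, 1055, 849 and 866 in wild-type OBs. It had 45.8, 133, 195 and 245 in deficient MSCs and 66.6, 166, 112 and 167 in wild-type MSCs. No library of one cell type came near the other. Its log2 fold change was 2.67 ± 0.45 in deficient mice (limma adjusted p = 0.000740) and 2.85 ± 0.27 in wild-type mice (adjusted p = 3.34e-06), the largest of the 9 in wild-type mice.

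Car2 had 5066, 5573, 6631 and 5862 normalized counts in deficient OBs and 4308, 7027, 4919 and 4633 in wild-type OBs. It had 497, 509, 1022 and 1769.5 in deficient MSCs and 518, 892, 730.4 and 827 in wild-type MSCs. The OB libraries were far above the MSC libraries, with log2 fold changes of 2.81 ± 0.36 in deficient mice (limma adjusted p = 0.000191) and 2.82 ± 0.19 in wild-type mice (adjusted p = 2.42e-07). Osteoclasts also make Car2. The summed level of 11 osteoclast genes was 3694 to 5074 normalized counts in deficient OBs and 4571 to 5338 in wild-type OBs, against 9989 to 13146 in deficient MSCs and 12944 to 15159 in wild-type MSCs. Of 7 tested osteoclast genes, 1 was higher and 4 lower in OBs in deficient mice, and 0 higher and 6 lower in wild-type mice. The shares of all genes tested were 29.0% higher and 30.6% lower in deficient mice, and 34.4% and 35.5% in wild-type mice. The higher osteoclast gene was Tcirg1, a proton pump gene, at 0.42 ± 0.14 on the log2 scale (limma adjusted p = 0.0271). The part of osteoclast RNA in the Car2 values was not tested. Car1, whose values by library are given with the genotype comparison, was higher in OBs by 2.22 ± 0.61 in deficient mice (adjusted p = 0.0108) and by 2.01 ± 0.46 in wild-type mice (adjusted p = 0.00242).

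Among the late genes, Alas2 had 514, 668, 599 and 855 normalized counts in deficient OBs and 712, 644, 743 and 665 in wild-type OBs. It had 136, 74.7, 123 and 362 in deficient MSCs and 117, 289, 174 and 143 in wild-type MSCs. This heme synthesis gene was higher in OBs by 2.14 ± 0.41 on the log2 scale in deficient mice (limma adjusted p = 0.00166) and by 2.01 ± 0.24 in wild-type mice (adjusted p = 1.96e-05), with no overlap.

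Slc4a1 had 2108, 2407, 2822 and 3216 normalized counts in deficient OBs and 2589, 3282, 3007 and 2771 in wild-type OBs. It had 323, 592, 477 and 1385 in deficient MSCs and 519, 936, 404 and 564 in wild-type MSCs. Band 3 RNA thus did not overlap between the cell types, at log2 fold changes of 2.13 ± 0.38 in deficient mice (limma adjusted p = 0.00104) and 2.33 ± 0.21 in wild-type mice (adjusted p = 2.50e-06).

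Hba-a1, read together with Hba-a2, had 1035, 1175, 1529 and 1538 normalized counts in deficient OBs and 1475, 1554, 1541 and 1472 in wild-type OBs. It had 401, 423, 350.3 and 1014 in deficient MSCs and 399.6, 678, 479 and 267 in wild-type MSCs. The highest MSC library, H, was just under the lowest OB library, E, and the cell types did not overlap. The alpha-globin difference was the smallest of the 9 in deficient mice, 1.39 ± 0.31 on the log2 scale (limma adjusted p = 0.00384), and was 1.80 ± 0.22 in wild-type mice (adjusted p = 2.93e-05). The calls of all 9 genes held in every alternative fit, in 162 of 162 values in deficient mice and 144 of 144 in wild-type mice.

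**Figure D2:**
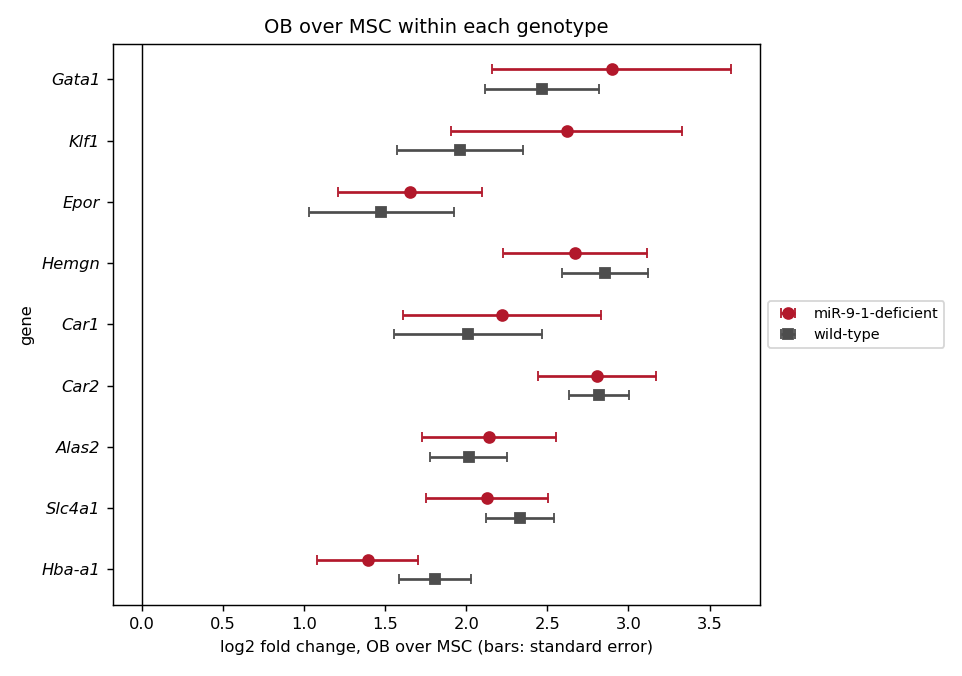
Log2 fold change of OBs over MSCs for each erythroid gene in deficient mice (circles) and wild-type mice (squares), with standard errors. All 18 values lie to the right of 0, between 1.39 (Hba-a1, deficient) and 2.90 (Gata1, deficient).

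Early and late genes were then set against each other within each library, as the mean log2(normalized count + 1) of Alas2, Slc4a1 and Hba-a1 minus that of Gata1, Klf1 and Epor. The lists are short and the score is a description with no test. Late minus early was 2.35 ± 0.17 in deficient OBs, 2.86 ± 0.57 in wild-type OBs, 2.86 ± 1.01 in deficient MSCs and 2.77 ± 0.41 in wild-type MSCs (SD, n = 4). The 4 deficient OB libraries had 2.42, 2.11, 2.36 and 2.52, and the 4 wild-type OB libraries 3.31, 2.05, 2.85 and 3.21. The wild-type OB libraries A, C and D were above all deficient ones, and library B was below them all. Deficient MSC libraries had 4.07, 3.20, 1.70 and 2.46, and wild-type MSC libraries 3.06, 3.20, 2.39 and 2.45. The lowest of these scores, in G, C and D, came with the highest sums of megakaryocyte genes among MSC libraries. Those sums were 6987, 4924 and 3266 normalized counts, against 1432 to 1837 in the other MSC libraries. Library H, at a score of 2.46, had a sum of 1670. The part of megakaryocyte RNA in the score was not tested. OBs minus MSCs, the score differed by -0.50 in deficient mice and by 0.08 in wild-type mice, and deficient minus wild-type was -0.50 in OBs and 0.08 in MSCs. These differences depended on single libraries. Leaving out each library in turn gave -0.77 (without wild-type mouse B) to -0.35 for the genotypes in OBs and -0.32 (without deficient mouse E) to 0.47 (without deficient mouse G) in MSCs. For OBs minus MSCs it gave -0.89 (without MSC library G) to -0.10 (without MSC library E) in deficient mice and -0.069 (without OB library A) to 0.35 (without OB library B) in wild-type mice. The early mean was 7.99 ± 0.26 in deficient OBs and 7.64 ± 0.62 in wild-type OBs, against 5.60 ± 1.46 in deficient MSCs and 5.68 ± 0.39 in wild-type MSCs. The late mean was 10.3 ± 0.27 in deficient OBs and 10.5 ± 0.06 in wild-type OBs, against 8.46 ± 0.79 in deficient MSCs and 8.45 ± 0.48 in wild-type MSCs.

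**Figure D3:**
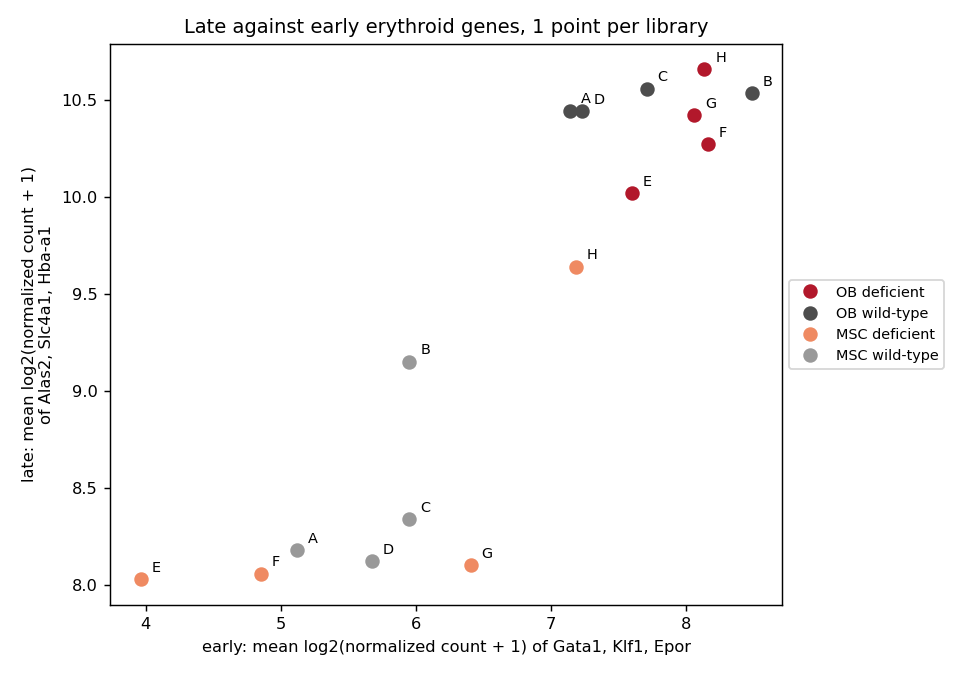
Mean log2(normalized count + 1) of 3 late genes (vertical) against that of 3 early genes (horizontal), with 1 point per library, coloured by group and lettered by mouse. OB libraries fill the upper right, the deficient MSC libraries E to H run along the early axis from 3.96 to 7.18, and the wild-type OB libraries sit at late values of 10.4 to 10.6.

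The early genes varied more between the mice of a group than the late ones in wild-type OBs. There the coefficient of variation was 28.1% for Gata1, 62.4% for Klf1 and 55.3% for Epor, and 6.45% for Alas2, 10.3% for Slc4a1 and 2.83% for Hba-a1. In deficient OBs the early genes stood at 15.0%, 21.0% and 20.7% in the same order and the late genes at 22.0%, 18.3% and 19.2%. Mouse B was the highest wild-type OB library for 8 of the 9 genes and the lowest for Alas2. Mouse H was the highest deficient MSC library for all 9 genes, and mouse E the lowest for Gata1, Klf1, Hemgn, Car1, Car2 and Slc4a1. Deviations from the group means over the 16 libraries did not split cleanly into early and late genes. All genes of a library share its depth and sort, and libraries of the same animal number may share a mouse. Gata1 moved with Car1 (Pearson r = 0.89), Hemgn (0.84), Car2 (0.84) and Klf1 (0.80), and less with Slc4a1 (0.54), Alas2 (0.48) and Hba-a1 (0.42). Klf1, however, moved more with Slc4a1 (0.79) than with Epor (0.68), and Hemgn did so too (0.73 and 0.66). Hba-a1 moved most with Alas2 (0.81) and Slc4a1 (0.78) among the 9. Each of the 9 genes had its largest SD of log2 values in deficient MSCs, such as 1.78 for Gata1, 1.70 for Klf1 and 0.70 for Hba-a1. Those libraries thus weigh heavily in these r values.

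Outside the 9, the genes whose deviations were most like those of Gata1 among 12579 candidates were Cd244 (r = 0.95), Prc1 (0.94), a gene of the dividing cell's midzone, and Dnah8 (0.93), over 16 libraries. For Klf1 they were Abcb4 (0.92) and the kinesin gene Kif22 (0.90), and for Epor D030056L22Rik (0.88) and Rrm2 (0.86), which encodes a subunit of ribonucleotide reductase. Hemgn was most like Zfp953 (0.95) and H2-T10 (0.93), and Car1 was most like Nek2 (0.90), a kinase gene of the cell cycle, closely followed by Car2. Car2 was most like Ermap (0.93), which encodes a red cell blood group protein. Alas2 was most like Arl6ip1 (0.95) and Ptpn7 (0.92). Slc4a1 was most like Dach1 (0.91) and Hbb-b1 (0.90), the beta-globin row. Hba-a1, apart from its identical copy, was most like Kcnab2 (0.96) and Myb (0.96), which encodes a transcription factor of blood progenitors. The SD of the log2 values of Gata1 was 1.78 in deficient MSCs and 0.22 to 0.70 in the other groups. Deficient MSC libraries thus weigh most in its r. Its Spearman coefficients were 0.79 with Cd244, 0.87 with Prc1 and 0.88 with Dnah8.

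Per kilobase of exon, the order of the levels was led by Car2 in OBs and by Hba-a1 in MSCs. In deficient OBs Car2 averaged 3234 normalized counts per kilobase, Car1 2208, Hba-a1 1887, Slc4a1 580.5, Hemgn 337, Alas2 324, Klf1 182, Gata1 145 and Epor 126. In wild-type OBs Car2 averaged 2920.2 per kilobase, Hba-a1 2161, Car1 714, Slc4a1 641, Hemgn 351, Alas2 339, Klf1 158, Gata1 141 and Epor 90.6. Car1 ranked above Hba-a1 in deficient OBs, but their libraries overlapped there, at 1864 to 2801 per kilobase for Car1 and 1481 to 2200.0 for Hba-a1. This rank also depends on the exon length used. Hba-a1 was scaled by its own 699 bases, and its value is also that of Hba-a2, which has 554 bases. In wild-type OBs Car1 lay wholly below Hba-a1 and overlapped Slc4a1 next below. In both genotypes the libraries of Hemgn and Alas2 overlapped, and so did those of Klf1 and Gata1, and of Gata1 and Epor. In MSCs the leading gene was Hba-a1, at 783 per kilobase in deficient and 653 in wild-type mice, the last was Gata1, at 30.1 and 26.8, and all neighbours in the order overlapped. The globins took a small part of all reads, 0.0448 to 0.0676% in deficient OBs and 0.0556 to 0.0605% in wild-type OBs, against 0.00954 to 0.0298% in deficient MSCs and 0.00882 to 0.0177% in wild-type MSCs.

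The rest of the pathway was read from lists of other red cell genes. Of 19 other regulators, 15 were higher and 1 lower in OBs in deficient mice, and again 15 and 1 in wild-type mice. Among all genes tested, 29.0% were higher and 30.6% lower in deficient mice, and 34.4% and 35.5% in wild-type mice. In wild-type mice Tal1, which works in a complex with Gata1, averaged 2499 ± 139 normalized counts in OBs and 198 ± 58.7 in MSCs (log2 fold change 3.70 ± 0.18, limma adjusted p = 3.05e-08). Gfi1b averaged 374 ± 42.5 in wild-type OBs and 35.6 ± 10.8 in wild-type MSCs, a log2 fold change of 3.40 ± 0.24. Lmo2, a partner of Tal1, had a log2 fold change of 3.36 ± 0.13, and the one lower regulator was Klf3, at -0.41 ± 0.10. In deficient mice Gata2, the factor that precedes Gata1 in progenitors, had a log2 fold change of 3.35 ± 0.14 and Myb one of 3.33 ± 0.18, and Klf3 was again lower (-0.65 ± 0.15). The median over the 19 was 2.43 in deficient and 2.09 in wild-type mice.

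Of the other globin genes tested, 5 of 5 were higher in OBs in deficient mice and 6 of 6 in wild-type mice, including the rows that repeat one another. The share of all genes that were higher was 29.0% in deficient and 34.4% in wild-type mice. Hbb-b1, the major adult beta-globin row, averaged 4878 ± 766 normalized counts in deficient OBs and 5180 ± 159 in wild-type OBs, against 1722 ± 951 in deficient MSCs and 1518 ± 447 in wild-type MSCs. The embryonic globin Hbb-bh1 was at 0 in all deficient libraries and at most at 1.51 in wild-type OBs and 4.05 in wild-type MSCs. Hbb-y was at 0 in both OB groups and in deficient MSCs and at most at 3.88 in wild-type MSCs. Hba-x, another embryonic globin, was at 0 in deficient OBs, at most at 2.94 in wild-type OBs, at 2.58 to 19.6 in deficient MSCs and at most at 5.18 in wild-type MSCs. Hbq1a, a theta-globin, was at 0 in both MSC groups, at 0 to 3.76 in deficient OBs and at 2.60 to 4.52 in wild-type OBs, and its copy Hbq1b was at 2.94 to 16.5 in deficient OBs and 9.04 to 19.5 in wild-type OBs, against 0 to 5.23 in deficient MSCs and 0 to 16.5 in wild-type MSCs. A count of 0 allows up to 3 reads, which is 1.95 to 2.36 normalized counts in OBs and 3.52 to 4.51 in MSCs.

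Of 12 other heme synthesis genes, 7 were higher and 1 lower in OBs in deficient mice, and 9 and 1 in wild-type mice. Alad and Urod, which encode enzymes of the path, had wild-type log2 fold changes of 1.74 ± 0.21 and 1.03 ± 0.09. The lower one was Alas1, which encodes the form of Alas2's enzyme used in most tissues, at -0.51 ± 0.20 in deficient and -0.54 ± 0.17 in wild-type mice. Of 17 other membrane genes, 13 were higher and 2 lower in deficient mice, and 14 and 2 in wild-type mice. Among the higher ones Kel, which encodes a red cell blood group protein, averaged 348 ± 80.3 normalized counts in deficient OBs and 59.6 ± 41.5 in deficient MSCs. The 2 lower ones were Aqp1, a water channel also made by endothelium, with 2072 ± 704 normalized counts in wild-type OBs and 10971 ± 2088 in wild-type MSCs, and Gypc. Of 10 iron genes, 4 were higher and 4 lower in deficient mice and 5 and 4 in wild-type mice. Tfr2, a transferrin receptor that also binds the erythropoietin receptor, led the higher ones at 3.07 ± 0.17 in deficient and 3.04 ± 0.21 in wild-type mice, and the ferritin gene Fth1 was lower, at -1.06 ± 0.16 and -0.77 ± 0.12. Of 20 other late red cell genes, 12 were higher and 2 lower in deficient mice, and 15 and 2 in wild-type mice. Of 9 carbonic anhydrases other than Car1 and Car2, 1 was higher and 3 lower in deficient mice and 1 higher and 4 lower in wild-type mice; the shares of all genes were 29.0% higher and 30.6% lower in deficient mice and 34.4% higher and 35.5% lower in wild-type mice.

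Markers of other blood cells were read in the same way. Of all genes tested, 29.0% were higher and 30.6% lower in OBs in deficient mice, and 34.4% and 35.5% in wild-type mice. The summed level of 10 blood progenitor genes such as Kit was 18679 to 23018 normalized counts in deficient OBs and 21045 to 23504 in wild-type OBs, against 8461 to 10336 in deficient MSCs and 9132 to 14376 in wild-type MSCs, and 8 of 10 were higher and 0 lower in OBs in deficient mice. In wild-type mice 7 of 10 were higher and 2 lower, Cebpa (-0.39 ± 0.13) and Runx1 (-0.30 ± 0.07). The megakaryocyte list, whose cells share Gata1 and Gfi1b with red cell precursors, summed to 5723 to 7271 in deficient OBs and 6492 to 7895 in wild-type OBs, against 1432 to 6987 in deficient MSCs and 1710 to 4924 in wild-type MSCs; 5 of 10 tested genes were higher and 1 lower in deficient mice, and 6 of 12 higher and 2 lower in wild-type mice. Gp6, which encodes a platelet collagen receptor, was at 0 in all deficient OB libraries. Of 11 neutrophil genes, 9 were lower and 1 higher in OBs in each genotype; the higher one was Prtn3, which encodes a granule protease, at 2.45 ± 0.23 on the log2 scale in deficient and 1.33 ± 0.29 in wild-type mice. The part of these other cells in the levels of the 9 genes was not tested.

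The comparison of genotypes gave no call among the 9 genes in either cell type. In OBs 0 of 9 passed, where 0.0281% of 14229 genes did, and in MSCs 0 of 9 passed, where 1.06% of 14964 did. At an unadjusted p under 0.05, limma gave 1 of 9 in each cell type, Car1 both times, where 8.95% of all genes had such a p in OBs and 22.8% in MSCs. A single gene of 9 is about the background in OBs and below it in MSCs. The median log2 fold change of the 9 was 0.07 in OBs and 0.12 in MSCs, beside -0.02 and -0.03 over all genes tested. The lists of other red cell genes had no call by genotype in either cell type. With edgeR's quasi-likelihood test 0 of 9 passed in each cell type, where 0.0281% of genes did in OBs and 0.982% in MSCs. DESeq2 gave 1 of 9 in OBs, where 1.36% of genes passed, and 0 of 9 in MSCs, where 8.01% did.

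Car1 was the exception in size. It had 2745, 2442, 3487 and 2320.2 normalized counts in deficient OBs and 533, 1713, 583 and 728 in wild-type OBs. Every deficient OB library was above every wild-type one. Groups that did not overlap, in either direction, were found in 5.47% of all genes tested and in 1 of these 9. The means were 2749 ± 524 and 889 ± 555 in the same order (SD, n = 4 each). The difference between the means of the log2 values was 1.78 ± 0.32, which is 3.43-fold. With limma this missed the threshold over all genes (adjusted p = 0.121), and it ranked at place 150 of 14229 by size. Of the wild-type libraries, B stood apart at 1713; without it the log2 fold change was 2.15 with an adjusted p of 0.00627, and Car1 was 1 of 3 genes called. With DESeq2 on the recovered reads the log2 fold change was 1.64 with an adjusted p of 0.0125, and with edgeR it was 1.65 with an adjusted p of 0.236. Over all alternative settings the adjusted p ranged from 0.00627 to 0.466.

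In MSCs Car1 had 229, 256, 1029 and 1891 normalized counts in deficient mice and 88.8, 188, 414 and 210.4 in wild-type mice. The groups overlapped through mouse C, and the high deficient libraries were G and H, the same 2 with high skeletal muscle markers. Megakaryocyte genes summed highest in G (6987 normalized counts) among deficient MSC libraries and in C (4924) among wild-type ones. In H they summed to 1670. The part of either material in the Car1 value was not tested. The log2 fold change was 1.57 ± 0.66 (limma adjusted p = 0.188), and without libraries G and H it was 0.31 with an adjusted p of 0.794. The Car1 effect of genotype in OBs minus that in MSCs was 0.21 ± 0.83 (limma adjusted p = 0.941). Without MSC libraries G and H it was 1.47 (adjusted p = 0.402).

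Its neighbour Car2 did not show a like difference. Car2 averaged 5783 ± 654 in deficient OBs and 5221 ± 1229 in wild-type OBs, with overlap and a log2 fold change of 0.17 ± 0.15 (limma adjusted p = 0.749). The ratio of Car1 to Car2 was 0.542, 0.438, 0.526 and 0.396 in deficient OBs and 0.124, 0.244, 0.119 and 0.157 in wild-type OBs, with no overlap. In MSCs the ratio was 0.461, 0.504, 1.01 and 1.07 in deficient mice and 0.172, 0.210, 0.567 and 0.255 in wild-type mice, overlapping through mouse C. These ratios were chosen after the values of Car1 were seen and are a description. In the list of other carbonic anhydrases, Car12 and Car8 had the smallest p in OBs and were lower without passing. Car12 averaged 71.2 ± 22.0 in deficient OBs and 498 ± 306 in wild-type OBs (log2 fold change -2.60 ± 0.44, limma adjusted p = 0.103), and in MSCs its log2 fold change was -2.68 ± 0.60 (adjusted p = 0.0558). Car8 averaged 21.2 ± 15.0 in deficient OBs and 109 ± 22.2 in wild-type OBs, a log2 fold change of -2.76 ± 0.67 (adjusted p = 0.267).

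**Figure D4:**
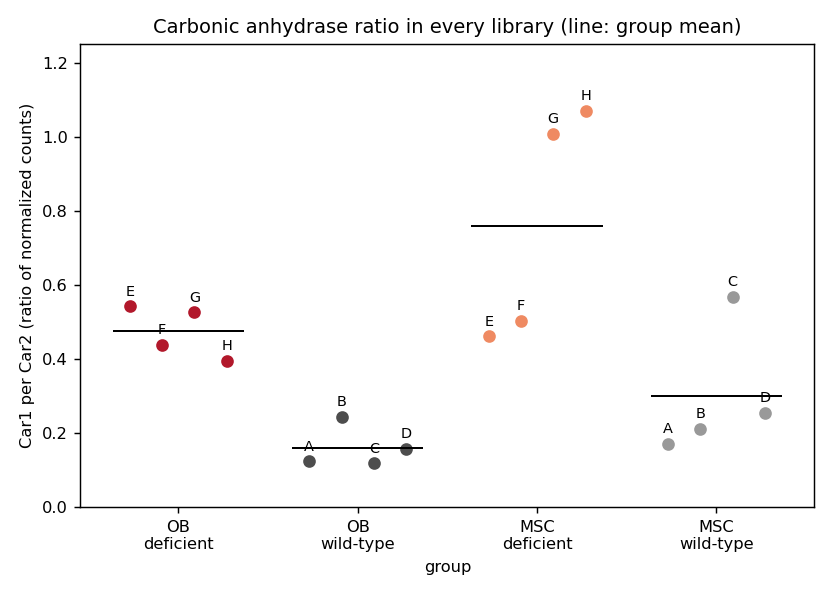
Ratio of Car1 to Car2 normalized counts in each library, lettered by mouse, with group means as lines. Deficient OBs (0.396 to 0.542) lie above wild-type OBs (0.119 to 0.244), and in MSCs wild-type library C (0.567) lies among the deficient ones.

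The early regulators did not differ by genotype beyond the spread between mice in OBs. Gata1 averaged 276 ± 41.3 normalized counts in deficient OBs and 268 ± 75.5 in wild-type OBs, a log2 fold change of 0.07 ± 0.20. Klf1 averaged 279 ± 58.6 and 242 ± 151 in the same order (0.35 ± 0.34), and Epor 221 ± 45.8 and 159 ± 88.2 (0.63 ± 0.38, limma adjusted p = 0.648). Both moved with single wild-type libraries: Klf1 was at 0.12 without mouse A and 0.72 without mouse B, and Epor at 0.29 without mouse D and 0.93 without mouse B, with no call in any of these. Hemgn stood at -0.06 ± 0.13. The late genes had log2 fold changes below 0, at -0.09 ± 0.14 for Alas2, -0.16 ± 0.13 for Slc4a1 and -0.22 ± 0.12 for Hba-a1 (limma adjusted p from 0.629 to 0.868), and all 4 of these values turned positive without OB libraries E and F.

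In MSCs the 8 genes other than Car1 had log2 fold changes from -0.36 ± 0.79 (Gata1) to 0.45 ± 0.52 (Epor), each smaller than its standard error. Klf1 stood at -0.31 ± 0.73, Alas2 at -0.22 ± 0.45, Slc4a1 at 0.05 ± 0.39, Hemgn at 0.12 ± 0.50, Car2 at 0.18 ± 0.36 and Hba-a1 at 0.20 ± 0.35. The deficient MSC libraries were spread widely: Gata1 spanned 15.6-fold from mouse E to mouse H, Klf1 16.2-fold and Hba-a1 2.89-fold. The share of all genes whose genotype groups did not overlap in MSCs was 12.4%, and none of the 9 was among them. When the effect of genotype in MSCs was subtracted from that in OBs, 0 of 9 passed, where 0.0129% of 15556 genes did, and 0 of 9 had an unadjusted limma p under 0.05, where 11.5% of genes did. With edgeR and DESeq2 0 of 9 passed as well, where 0.00643% and 0.816% of genes did. Without MSC libraries G and H the effects in MSCs were -1.81 for Gata1, -1.66 for Klf1 and -0.75 for Alas2, still with no call. In that fit 0 of 14470 genes passed, so the missed calls say little about these genes. The deficient libraries left, E and F, were both high in Ddx3y, and among the wild-type ones only A was. Gata1 and Alas2 are X-linked, and whether sex played a part was not tested.

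**Figure D5:**
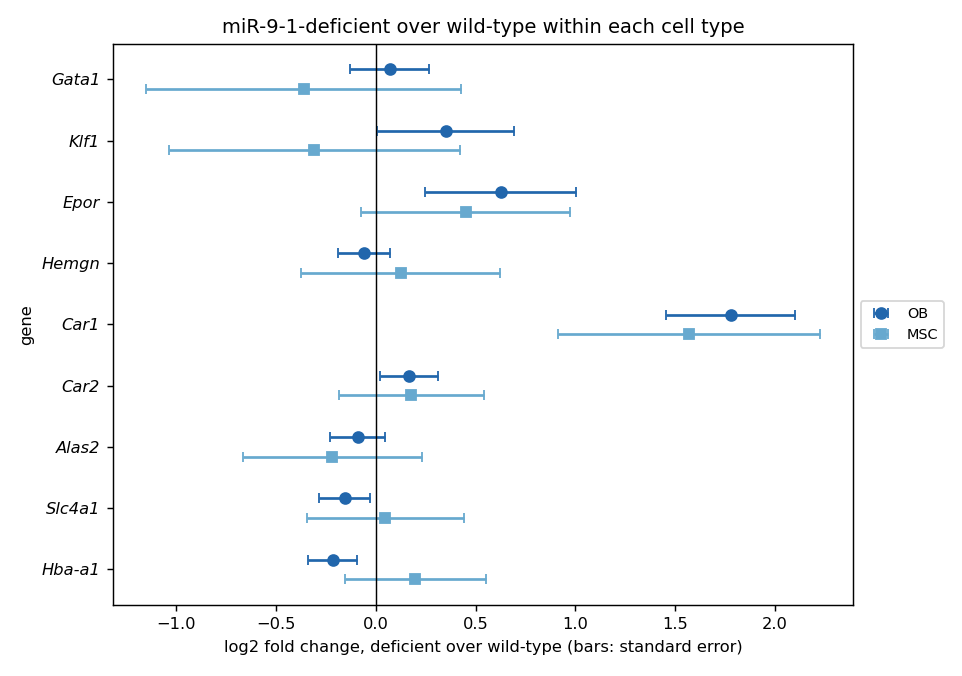
Log2 fold change of deficient over wild-type mice for each erythroid gene in OBs (circles) and MSCs (squares), with standard errors. Car1 has the largest value in each cell type (1.78 in OBs, 1.57 in MSCs), but neither passed with limma. Without MSC libraries G and H its value in MSCs is 0.31. The other genes lie between -0.36 and 0.63.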

How the data were processed

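The deposited table gives 1 normalized count per gene symbol and library. Per the submitters' processing notes, DESeq2 1.24.0 and the mm10 build were used; for the aligner, the counter, the annotation and the strand setting, nothing is given in the sources used here. The authors' values have the unit of a signal (counts of reads per gene, scaled by the library's size factor): multiplied back, 100% of them came out whole within 0.01, so whole reads were recovered and used for edgeR and DESeq2. Where a gene has 0 reads, the 95% upper limit is 3 reads, for counting error only.

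Values were tested as log2(normalized count + 1) with limma 3.58.1 in R 4.3.3 (empirical Bayes with trend), keeping genes that reached 10 in no fewer than 4 of the libraries of a fit. The threshold was a Benjamini-Hochberg adjusted p of 0.05 over all genes kept. Comparisons were deficient against wild-type in OBs and in MSCs, OBs against MSCs in each genotype (8 libraries each), and the difference of the genotype effects (16 libraries). Levels between genes were set per kilobase of merged exons (GENCODE vM21). The 9 genes, the lists and the tests were chosen with earlier results of these data known. Named genes are the 9 with every library's value, up to 3 passing genes per list, direction and comparison by size (mean of 50 or more; else up to 2 by smallest p), the 3 genes most alike to each of the 9, and the globins. The text prints a part of what this rule takes, chosen for length after the values were seen, and some genes are not reported here. The libraries are taken as separate animals from the labels' numbers; no culture or sort batch is stated, so p-values measure the spread between these libraries.

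MSC and OB libraries with the same animal number correlated in their deviations from the group means with r from 0.0241 to 0.285. Each MSC library was compared with the 4 OB libraries of its genotype only, and 7 of 8 correlated best with their own number. Xist and Ddx3y, however, did not match within a number. In MSC libraries B, C, D, G and H, Ddx3y was at 29.8 to 78.1 normalized counts. The OB libraries of these numbers held 649 to 817. Xist was at 291 to 392 in MSC libraries A, E and F and at 3720 to 4652 in OB libraries A, E and F. The numbers were still taken to name the same mice, though an OB library may hold more than 1 mouse. A replicate block by number was added as an alternative. Other alternatives were no filter or one of 50, a pseudocount of 5, quantile normalization, edgeR 4.0.16 (quasi-likelihood, TMM), DESeq2 1.42.0, all 16 libraries in 1 fit, leaving out mice D and H, MSC libraries G and H or OB libraries E and F, and every single library in turn. The limma fit was also run on simulated counts with known changes.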

Additional observations from a re-analysis of the deposited data

Results flagged for a closer look

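Of 36 sets of 4 libraries (9 genes in 4 groups), 2 held a library whose gap to its nearest neighbour, as a share of the whole range, was above Dixon's 95% critical value for 4 samples; chance gives about 1 in 20. In wild-type OBs, Car1 in mouse B was the highest at 1713 normalized counts, against 533 to 728 in the other 3 mice (gap 0.835 of the range). In deficient MSCs, Hba-a1 in mouse H was the highest at 1014 normalized counts, against 350.3 to 423 in the other 3 mice (gap 0.891 of the range). MSC library H was also the library with the highest skeletal muscle sum (5325 normalized counts); its part was not tested.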

How the results depend on the processing

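All 9 genes were called higher in OBs in both genotypes under every alternative run, and quantile normalization, which moved the median log2 fold change of all genes to 0.17 in wild-type and 0.10 in deficient mice, left 9 of 9 in each. Pairing the cell types by animal number in a replicate block also left 9 of 9 in each genotype and 0 of 9 for the difference of effects. The count called by genotype in OBs was 0 of 9 except with DESeq2 (1, Car1) and 0 to 1 when each library was left out (1 without wild-type mouse B). In MSCs it was 0 throughout. Without deficient MSC library F, 2261 of 14775 genes were called. Leaving out any other single MSC library called only 0 to 12 genes in all, so 0 of 9 says little in those fits. Late minus early moved by less than 1 SD in all settings, though values near 0 changed sign: by genotype in MSCs to -0.012 without Hba-a1 and -0.011 with quantile normalization, and between cell types in wild-type mice to -0.14 with Hemgn as an early gene and -0.18 with quantile normalization. None of the genotype effects that changed sign was called, and the cause of the changes was not tested. For the difference of effects, 41 of 234 values changed sign, all uncalled; Car1 is given here. In MSCs, the log2 fold change was 0.18 for Gata1 with both edgeR and DESeq2 and 0.32 and 0.33 for Klf1; without mice D and H it was -0.0035 for Epor, -0.019 for Hemgn, -0.13 for Car2, -0.37 for Slc4a1 and -0.38 for Hba-a1; without libraries G and H it was -0.34, -0.61, -0.53, -0.40 and -0.068 in the same order, and, with no change of sign, -1.81 for Gata1, -1.66 for Klf1, -0.75 for Alas2 and 0.31 for Car1. In OBs without libraries E and F it was 0.094 for Hemgn, 0.053 for Alas2, 0.054 for Slc4a1 and 0.022 for Hba-a1. The Car1 difference of effects was -0.29 with both edgeR and DESeq2 and 1.47 without MSC libraries G and H. Leaving out each library gave ranges in MSCs of -0.89 to 0.37 for Gata1, -0.96 to 0.34 for Klf1, -0.18 to 0.62 for Hemgn, -0.19 to 0.42 for Car2, -0.65 to 0.10 for Alas2, -0.36 to 0.34 for Slc4a1 and -0.15 to 0.42 for Hba-a1. In OBs the ranges were -0.080 to 0.24 for Gata1, -0.14 to 0.045 for Hemgn and -0.22 to 0.020 for Alas2, and for the Car1 difference of effects -0.24 to 0.78. Groups of 4 libraries and the spread among deficient MSCs limit what a missed call shows; a true difference may be present. Depth limits Gata1 and Klf1 in MSCs most: the lowest value of Gata1 rested on 6 reads, and with the filter of 50 Gata1 was not tested in MSCs by genotype.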
